A study of Mus musculus with 4 samples.

Results

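The epithelial and keratin genes described here are 35 genes that mark the sheets of ectoderm and endoderm covering the first pharyngeal arch. They were chosen by symbol, and a gene was taken up for testing where its normalized read count averaged at least 10 over the 4 libraries. All 35 symbols were found, and 33 reached that level, among 16746 of 52459 listed genes that did. RNA came from the first pharyngeal (branchial) arch of mouse embryos at embryonic day 9.5 or slightly later, staged at 25 to 27 somites. The arch is the outgrowth that builds the jaws. There were 2 libraries from Wnt1-Cre;pMes-Bmp4 embryos and 2 from wild-type embryos. Wnt1-Cre is a recombinase expressed in premigratory neural crest and dorsal neural tube, and pMes-Bmp4 is a Bmp4 transgene that the recombinase switches on, so the added ligand is made in the crest lineage and not, by design, in the ectoderm. No group carried either transgene alone, and the labels do not say whether a library came from 1 embryo or a pool. The other group is labelled wild-type only.

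Epithelial cells are held together by cadherins, by desmosomes, which anchor keratin filaments, and by tight junctions sealed by claudins and occludin. Keratin filaments are built from pairs of an acidic (type I) and a basic (type II) chain: Krt8 with Krt18, Krt7 and Krt19 are typical of simple epithelia, and Krt5 with Krt14, with Krt15 and Krt17, of basal and stratifying epithelia. At this stage the surface ectoderm is a thin sheet in which Trp63, the p63 factor of stratifying epithelia, is already active, and it signals to the crest-derived mesenchyme beneath.

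The transgene's ligand checked the labels. Bmp4 read 2656 and 1745 normalized reads in Wnt1-Cre;pMes-Bmp4 libraries 1 and 2, against 681.7 and 437.1 in wild-type libraries 1 and 2. The libraries held 31404494 and 29607541 reads assigned to genes in Wnt1-Cre;pMes-Bmp4 and 47849092 and 33763574 in wild-type. All 10 genes listed as defining markers of arch ectoderm (Epcam, Cdh1, Krt8, Krt18, Krt14, Trp63, Cldn6, Esrp1, Grhl2 and Perp) were well above the minimum in every library. All 10 belong to the set described here, so they are no separate check of its name. Several of them also mark pharyngeal endoderm, which lines an intact arch, so the label of arch ectoderm cannot be separated from endoderm by these genes alone. Of 16 endoderm genes looked for, 10 reached the minimum. Krt5, the partner of Krt14 in basal keratinocytes, was nearly absent, at 0 and 2.43 reads in Wnt1-Cre;pMes-Bmp4 and 8.16 and 0 in wild-type. The desmosomal plaque protein Pkp1, at 6.4 and 7.28 in Wnt1-Cre;pMes-Bmp4 and 2.23 and 0 in wild-type, was the other gene below the minimum.

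Most of the epithelial genes read higher in Wnt1-Cre;pMes-Bmp4, and the keratins Krt18 and Krt14 passed the test. The test was limma on log2(value + 1), two-sided, with Benjamini-Hochberg adjustment over all 16746 genes and a threshold of 0.05. Of the 33 genes tested, 2 were called higher and 0 lower, where 2.97% of all genes tested were called higher and 5.28% lower (8.25% in either direction). At an unadjusted limma p under 0.05 there were 10 higher and 1 lower (28.8% of all genes tested, in either direction), and edgeR and DESeq2 on recovered reads called 2 and 8 higher and 0 and 1 lower. Positive log2 fold changes were seen for 24 of 33 genes (72.7%), against 51.3% of all genes tested, with a median of 0.38 on the log2 scale, against 0.02 over all genes tested. Both Wnt1-Cre;pMes-Bmp4 libraries lay above both wild-type libraries for 20 of the 33 and below them for 3, where 30.0% of all genes tested lay above and 29.7% below. The summed reads of the 35 genes were 52834 and 47303 in Wnt1-Cre;pMes-Bmp4, against 41355 and 32510 in wild-type. The genes were chosen with earlier results of these data known, and all share the same 4 libraries. Their counts and sums therefore describe the list and are no test of it. In RNA of a whole arch, more epithelial cells and more RNA per epithelial cell cannot be told apart.

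Libraries of the same genotype also differed in these genes. Wild-type library 1 exceeded wild-type library 2 for 26 of the 33 genes (49.2% of all genes tested), with a median log2 difference of 0.27. Library 1 of Wnt1-Cre;pMes-Bmp4 exceeded library 2 for 25 of the 33 (50.4% of all genes tested), with a median log2 difference of 0.23. Without wild-type library 1 the median over the 33 genes was 0.50, and without wild-type library 2 it was 0.24.

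**Figure D1:**
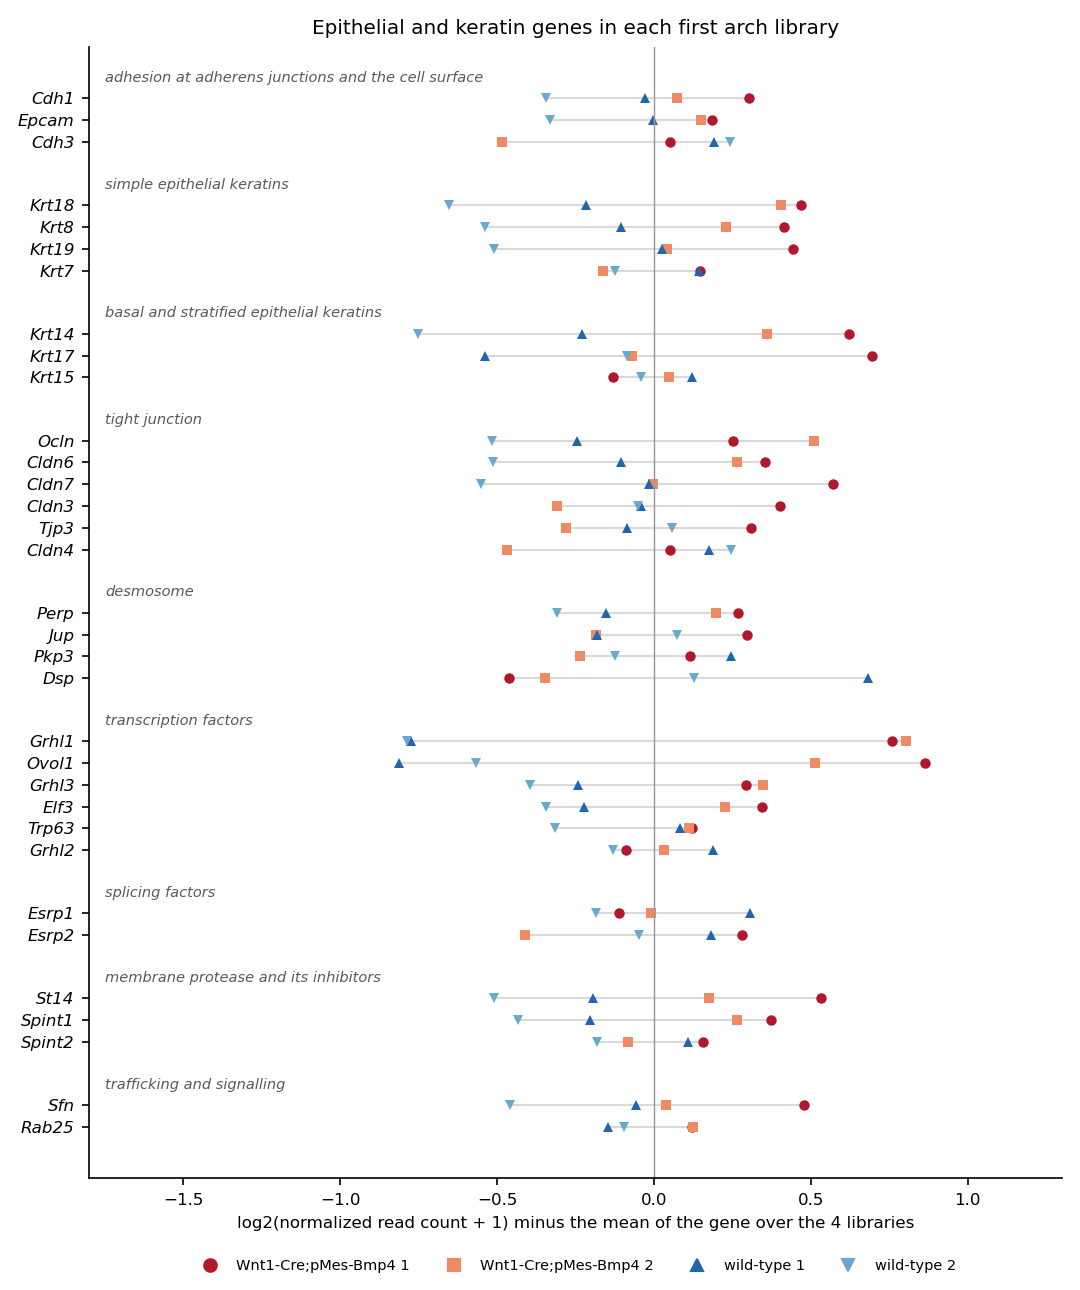
Each row is 1 of the 33 epithelial and keratin genes tested, grouped by role, and each mark is 1 library, placed by its log2(normalized read count + 1) minus the mean of that gene over the 4 libraries. For 20 genes both Wnt1-Cre;pMes-Bmp4 marks (circle, square) lie to the right of both wild-type marks (triangles), most widely for Grhl1 and Ovol1, and for Dsp, Cdh3 and Cldn4 they lie to the left.

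Per kilobase of the longest annotated transcript, Krt18 had the highest level of the 33, averaging 6416 normalized reads per kb in Wnt1-Cre;pMes-Bmp4 and 3548 in wild-type. Krt8 averaged 3674 and 2372 per kb on the same scale, close to Cldn6 at 3800 and 2499 and Epcam at 2946 and 2352, each with Wnt1-Cre;pMes-Bmp4 given before wild-type. Krt14, the most abundant of the basal keratins, was far lower, at 452.5 per kb in Wnt1-Cre;pMes-Bmp4 and 231.8 in wild-type. Between Krt8 and Krt14 stood Krt19, at 1190 per kb in Wnt1-Cre;pMes-Bmp4 and 856.9 in wild-type, and Krt7, at 503.4 and 509.4 in the same order. The longest annotated transcript is 4094 bases for Krt7 and 1576 for Krt19, so the place of Krt7 depends on that annotation. Without division by length, Krt7 averaged 2061 normalized reads in Wnt1-Cre;pMes-Bmp4 and 2085 in wild-type, and Krt19 1876 and 1351. Krt15 was below Krt14, at 155.8 per kb in Wnt1-Cre;pMes-Bmp4 and 164.8 in wild-type. The lowest of the 33 per kb were Grhl1 and Ovol1, at 13.8 and 16.3 in Wnt1-Cre;pMes-Bmp4 and 4.47 and 6.03 in wild-type.

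**Figure D2:**
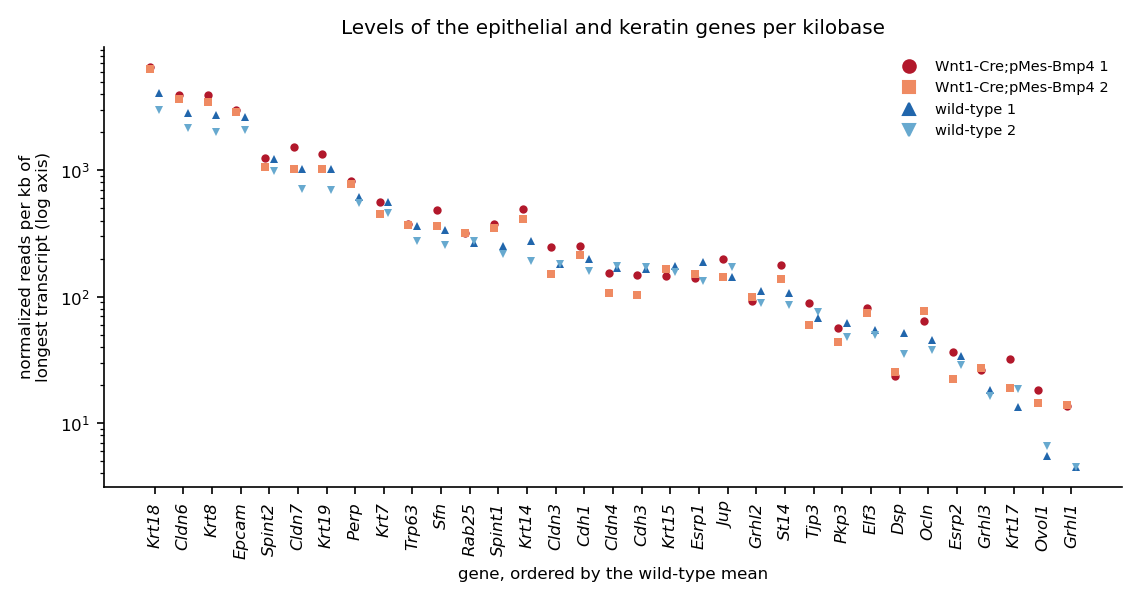
Normalized reads per kilobase of longest transcript, on a log axis, for each of the 33 genes in each of the 4 libraries, with genes ordered by their wild-type mean. Krt18 stands highest in all 4 libraries, and Grhl1 and Ovol1 lowest, with both Wnt1-Cre;pMes-Bmp4 libraries above the wild-type ones for all 3.

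Krt18, the type I chain of simple epithelia, read 9419 and 9019 in Wnt1-Cre;pMes-Bmp4 and 5867 and 4329 in wild-type. The groups did not overlap, and the wild-type libraries differed more from each other than the Wnt1-Cre;pMes-Bmp4 ones did. Krt18 averaged 9219 ± 283 in Wnt1-Cre;pMes-Bmp4 and 5098 ± 1088 in wild-type (SD, n = 2 each), which is 1.81-fold higher, at log2 fold change 0.87 ± 0.16 (SE; limma adjusted p 0.0309). Its type II partner Krt8 read 7659 and 6728 in Wnt1-Cre;pMes-Bmp4 and 5336 and 3952 in wild-type, also without overlap. Krt8 was 1.55-fold higher and just missed the threshold, at log2 fold change 0.64 ± 0.17 (SE; limma adjusted p 0.0597). Krt19, another type I chain of simple epithelia, read 2135 and 1616 in Wnt1-Cre;pMes-Bmp4 and 1598 and 1103 in wild-type, so the lower transgenic and the higher wild-type library were almost level (log2 fold change 0.48, limma adjusted p 0.196). Krt7, another type II chain, read 2281 and 1841 in Wnt1-Cre;pMes-Bmp4 and 2277 and 1894 in wild-type. Its groups overlapped throughout (log2 fold change -0.02 ± 0.17 (SE), limma adjusted p 0.949), so the chains of simple epithelia did not all read higher.

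Krt14, the type I keratin of basal cells and a gene under p63 control in skin, read 838.3 and 698.4 in Wnt1-Cre;pMes-Bmp4 and 464.3 and 323 in wild-type. It averaged 768.3 ± 98.9 in Wnt1-Cre;pMes-Bmp4 and 393.6 ± 100 in wild-type (SD, n = 2 each), 1.95-fold higher, at log2 fold change 0.98 ± 0.22 (SE; limma adjusted p 0.0433). Krt15, a type I keratin of basal progenitor layers, read 248.5 and 281.3 in Wnt1-Cre;pMes-Bmp4 and 296 and 264.3 in wild-type, and its groups overlapped (log2 fold change -0.08, limma adjusted p 0.822). Krt17, a keratin of periderm and of activated epithelium, was rare, at 50.1 and 29.1 in Wnt1-Cre;pMes-Bmp4 and 20.8 and 28.8 in wild-type (log2 fold change 0.62, limma adjusted p 0.422). Krt14 and Krt17 share sequence: 3.34% of the 50-base windows of the longest Krt14 transcript also occur in that of Krt17, and reads from those stretches cannot be assigned with certainty. Neither Krt18 nor Krt14 passed when either wild-type library was left out, with the lone wild-type library assumed to vary as the Wnt1-Cre;pMes-Bmp4 ones do. Nearly all calls over all genes tested were lost in these fits too, so the loss was not particular to Krt18 and Krt14. Without wild-type library 1 the log2 fold changes of Krt18 and Krt14 were 1.09 and 1.24, and without wild-type library 2 they were 0.65 and 0.72.

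The genes of the Krt8 and Krt18 pair stand head to head on chromosome 15 of GRCm38. Krt8 runs on the minus strand from 101996698 to 102004482 and Krt18 on the plus strand from 102028180 to 102032027, with 23697 bases between them (GENCODE M21). Krt18 is the only type I keratin gene located in the type II cluster. Krt15, Krt19, Krt14 and Krt17 lie in this order in the type I cluster on chromosome 11, between 100131758 and 100261029, and had log2 fold changes of -0.08, 0.48, 0.98 and 0.62. Krt14 was the one that passed among these 4; differences between neighbours were not tested. The promoters below, from RefSeq on GRCm38.p6, each hold 250 bases before and 50 bases from the annotated start, and are shown for Krt18, which passed, for Krt8 as its partner, and for Epcam as a broad epithelial gene. Their starts lie 36, 140 and 0 bases inside the GENCODE M21 genes, in that order. The window listed for Krt14 is not shown, since its start lies 1518 bases inside the gene. Capitals mark the E-box CAGGTG on either strand (CACCTG is the same site read on the other strand), the element through which ZEB and Snail repressors are known to silence epithelial genes such as Cdh1.
Krt18, chr15:102027966-102028265, plus strand: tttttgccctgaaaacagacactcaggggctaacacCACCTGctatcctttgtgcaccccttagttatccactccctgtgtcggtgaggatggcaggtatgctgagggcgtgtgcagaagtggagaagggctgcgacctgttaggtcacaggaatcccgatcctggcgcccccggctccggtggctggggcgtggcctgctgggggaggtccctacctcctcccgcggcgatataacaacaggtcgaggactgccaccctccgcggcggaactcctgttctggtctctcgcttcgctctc
Krt8, chr15:102004293-102004592, minus strand: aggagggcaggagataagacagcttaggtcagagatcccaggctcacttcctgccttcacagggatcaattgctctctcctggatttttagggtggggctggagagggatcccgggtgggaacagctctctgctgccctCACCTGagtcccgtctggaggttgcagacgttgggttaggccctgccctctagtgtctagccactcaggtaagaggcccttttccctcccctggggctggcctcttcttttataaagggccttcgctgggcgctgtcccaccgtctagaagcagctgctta
Epcam, chr17:87635729-87636028, plus strand: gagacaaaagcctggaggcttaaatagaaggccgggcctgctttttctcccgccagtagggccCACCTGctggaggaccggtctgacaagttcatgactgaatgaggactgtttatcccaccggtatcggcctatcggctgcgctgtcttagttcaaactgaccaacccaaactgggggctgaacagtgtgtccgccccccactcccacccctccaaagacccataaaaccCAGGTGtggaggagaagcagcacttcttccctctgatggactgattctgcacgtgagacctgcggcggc

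The promoter table held 20 of the 33 genes, and 16 of these 20 (80.0%) held CAGGTG on either strand in at least 1 window. Krt14 and Krt7, whose windows start 1518 and 1360 bases inside the gene, are among the 20. Of the 18 genes with a start within 500 bases of the gene's 5′ end, 15 held it. The same 6 letters were in the windows of 22.6% of all 27025 genes with a promoter and of 20.9% of the 10931 genes tested here that have one. Counted from the first transcribed base as 0, the site in the Krt18 window began at position -214, that in the Krt8 window at -111 and those in the Epcam window at -187 and -19. Spint2 held 3 sites, the most among the 20, with a site in overlapping windows of a gene counted once. The motif AACCGGTT, the palindrome bound by grainyhead-like factors, was in 0 of the 20 genes' windows and in 0.174% of all genes' (0.302% of those tested). TATAAA on either strand was in 1 of the 20, Krt8, and in 15.7% of all genes' windows (8.74% of those tested). A match describes the sequence only.

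None of the 3 surface adhesion genes passed. Epcam, an adhesion molecule on nearly all embryonic epithelium, read 6080 and 5940 in Wnt1-Cre;pMes-Bmp4 and 5345 and 4250 in wild-type, at log2 fold change 0.33 ± 0.15 (SE; limma adjusted p 0.183). Cdh1, E-cadherin, read 1109 and 944.5 in Wnt1-Cre;pMes-Bmp4 and 879.7 and 706.6 in wild-type (log2 fold change 0.38, limma adjusted p 0.21). Both lay above wild-type without overlap. Cdh3, P-cadherin, whose gene lies 46.1 kb from Cdh1 on chromosome 8, went the other way, at 653.8 and 451 in Wnt1-Cre;pMes-Bmp4 and 721 and 745.7 in wild-type (log2 fold change -0.43, limma adjusted p 0.222).

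The claudins and occludin of tight junctions were split. Cldn6, a claudin of embryonic epithelia, read 6352 and 5975 in Wnt1-Cre;pMes-Bmp4 and 4623 and 3484 in wild-type, 1.52-fold higher, and missed the threshold (log2 fold change 0.62 ± 0.16 (SE), limma adjusted p 0.0579). Ocln, occludin, read 260.2 and 311.6 in Wnt1-Cre;pMes-Bmp4 and 184 and 152.2 in wild-type, 1.7-fold higher (log2 fold change 0.76 ± 0.23 (SE), limma adjusted p 0.0813). For both, each transgenic library was above each wild-type one. Cldn7 had a log2 fold change of 0.57 (limma adjusted p 0.181), Cldn3 of 0.09 and Tjp3, a scaffold of the junction's cytoplasmic face, of 0.03 (limma adjusted p 0.848 and 0.952). Cldn4, next to Cldn3 on chromosome 5 with 39.3 kb between them, read 278.4 and 194 in Wnt1-Cre;pMes-Bmp4 and 303.4 and 318.8 in wild-type (log2 fold change -0.42, limma adjusted p 0.29). Of these 6 tight junction genes, 3 lay above wild-type without overlap, 1 below, and 2 overlapped. Over all genes tested, 30.0% lay above without overlap and 29.7% below.

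Desmosome genes went in different directions. Dsp, desmoplakin, which ties keratin filaments to the desmosome, was the lowest of the 33 relative to wild-type, at 225 and 243.7 in Wnt1-Cre;pMes-Bmp4 and 497.7 and 338.4 in wild-type. It stood 1.78-fold lower, at log2 fold change -0.81 ± 0.24 (SE), and missed the threshold (limma adjusted p 0.0785). After the corrections for transcript length, and for length with GC content, its log2 fold change was -0.22 and -0.14. Perp, a membrane protein of desmosomes and a p63 target, read 1591 and 1518 in Wnt1-Cre;pMes-Bmp4 and 1188 and 1066 in wild-type, 1.38-fold higher (log2 fold change 0.47 ± 0.14 (SE), limma adjusted p 0.083). Jup, plakoglobin, and Pkp3, plakophilin 3, overlapped between the groups, with log2 fold changes of 0.11 and -0.12 (limma adjusted p 0.769 and 0.801).

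Among the transcription factors, the largest log2 fold changes of the 33 genes tested were those of 2 rare genes. Grhl1, a grainyhead-like activator of epithelial and desmosomal genes, read 46.9 and 48.5 in Wnt1-Cre;pMes-Bmp4 and 15.6 and 15.4 in wild-type. The groups did not overlap, and values within each were close. A single read stood for 0.742 (wild-type library 1) to 1.21 (Wnt1-Cre;pMes-Bmp4 library 2) normalized reads, so these values rest on few reads. The gene was not called (log2 fold change 1.56 ± 0.43 (SE), limma adjusted p 0.0671). Ovol1, a zinc finger repressor that favours epithelial over mesenchymal state and slows progenitor growth in skin, read 54.4 and 42.4 in Wnt1-Cre;pMes-Bmp4 and 16.3 and 19.5 in wild-type, 2.7-fold higher (log2 fold change 1.38 ± 0.43 (SE), limma adjusted p 0.0905). Grhl3, the grainyhead-like factor of periderm and of neural tube closure, read 73.6 and 76.4 in Wnt1-Cre;pMes-Bmp4 and 50.4 and 45.3 in wild-type (log2 fold change 0.64, limma adjusted p 0.241). Elf3, an ETS factor of differentiating epithelia, read 169.6 and 156.4 in Wnt1-Cre;pMes-Bmp4 and 114.2 and 104.9 in wild-type (log2 fold change 0.57, limma adjusted p 0.18). All 4 lay above wild-type without overlap, as did 30.0% of all genes tested, and none passed in limma.

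The broad epithelial regulators had small fold changes, and none passed. Grhl2, which drives Cdh1 and claudin genes in many epithelia, read 453.3 and 493.5 in Wnt1-Cre;pMes-Bmp4 and 550.4 and 441.2 in wild-type (log2 fold change -0.06 ± 0.19 (SE), limma adjusted p 0.86). Trp63 read 2003 and 1991 in Wnt1-Cre;pMes-Bmp4 and 1952 and 1478 in wild-type, with wild-type library 1 almost at the transgenic level (log2 fold change 0.23 ± 0.17 (SE), limma adjusted p 0.39). The splicing regulators Esrp1 and Esrp2, which set epithelial exon choices in genes such as Fgfr2, had log2 fold changes of -0.12 and -0.13 (limma adjusted p 0.731 and 0.817), with overlapping groups. Counts per gene carry no information on those exon choices.

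Among the membrane proteases and their inhibitors, St14, matriptase, read 632.4 and 493.5 in Wnt1-Cre;pMes-Bmp4 and 382 and 306.5 in wild-type, 1.64-fold higher (log2 fold change 0.71 ± 0.21 (SE), limma adjusted p 0.0806). Its inhibitor Spint1 read 878.8 and 813.6 in Wnt1-Cre;pMes-Bmp4 and 588.2 and 501.9 in wild-type, 1.55-fold higher (log2 fold change 0.64 ± 0.17 (SE), limma adjusted p 0.0581). The groups of both genes did not overlap. Spint2, the related inhibitor, overlapped at 4094 and 3466 in Wnt1-Cre;pMes-Bmp4 and 3960 and 3235 in wild-type (log2 fold change 0.07, limma adjusted p 0.784). Sfn, the 14-3-3 sigma protein of stratifying epithelia, had a log2 fold change of 0.52 and Rab25, a GTPase of epithelial recycling endosomes, of 0.24 (limma adjusted p 0.178 and 0.42).

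Ratios within a library do not depend on its size factor. Relative to Epcam in the same library, 12 of the 32 other genes tested were higher in both Wnt1-Cre;pMes-Bmp4 libraries than in both wild-type libraries, 11 were lower in both and 9 overlapped. By the same ratio, 9.21% of all genes tested were higher in both and 45.6% lower in both. Krt18 stood at 154.9% and 151.8% of Epcam in Wnt1-Cre;pMes-Bmp4 and at 109.8% and 101.9% in wild-type, so it was higher relative to this epithelial gene as well. The pairs that follow were chosen after their values were seen. Grhl1 was at 10.3% and 9.83% of Grhl2 in Wnt1-Cre;pMes-Bmp4 and at 2.83% and 3.5% in wild-type. Krt14 was at 337.3% and 248.3% of Krt15 in Wnt1-Cre;pMes-Bmp4 and at 156.9% and 122.2% in wild-type. Krt8 was at 81.3% and 74.6% of Krt18 in Wnt1-Cre;pMes-Bmp4 and at 91% and 91.3% in wild-type. St14 was at 72% and 60.7% of its inhibitor Spint1 in Wnt1-Cre;pMes-Bmp4 and at 64.9% and 61.1% in wild-type, and these groups overlapped. No test was run on the ratios.

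**Figure D3:**
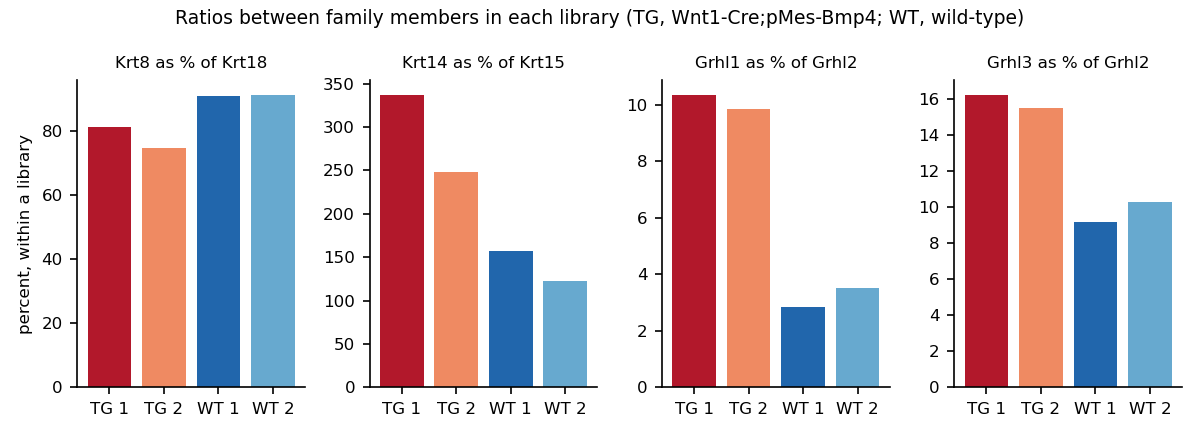
Bars give the normalized reads of 1 gene as a percent of another of its family within each library, in Wnt1-Cre;pMes-Bmp4 (TG) and wild-type (WT) libraries 1 and 2, each panel with its own axis from 0. Grhl1 and Grhl3 relative to Grhl2, and Krt14 relative to Krt15, are higher in both TG libraries, and Krt8 relative to Krt18 is lower.

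Transcript length moved with these fold changes, and its part in them was not tested beyond the correction given here. Epithelial genes with transcripts under 2000 bases had a median log2 fold change of 0.52 (13 genes), against 0.15 for all genes of that length, and those of 4000 bases and more had -0.02 (7 genes), against -0.26. Across the 33 genes Spearman's rho of length with log2 fold change was -0.322, and across 16225 genes tested it was -0.278. These points share the same 4 libraries and are a description. After a correction for transcript length the median over the 33 genes was 0.27, and limma called 0 of the 33 higher and 0 lower, with 11 higher and 1 lower at an unadjusted p under 0.05. In that fit 3851 of all 16225 genes had an unadjusted limma p under 0.05, in either direction, and 107 were called higher and 162 lower. Krt18 then had a log2 fold change of 0.66 (limma adjusted p 0.0765) and Krt14 of 0.77 (limma adjusted p 0.0974). Dsp, whose transcript of 9592 bases is the longest of the set, had a limma adjusted p of 0.645, and Trp63, with 5366 bases, had 0.49 (limma adjusted p 0.165). With GC content added to the correction Krt18 and Krt14 passed, at 0.74 and 0.89 (limma adjusted p 0.0283 and 0.0358).

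**Figure D4:**
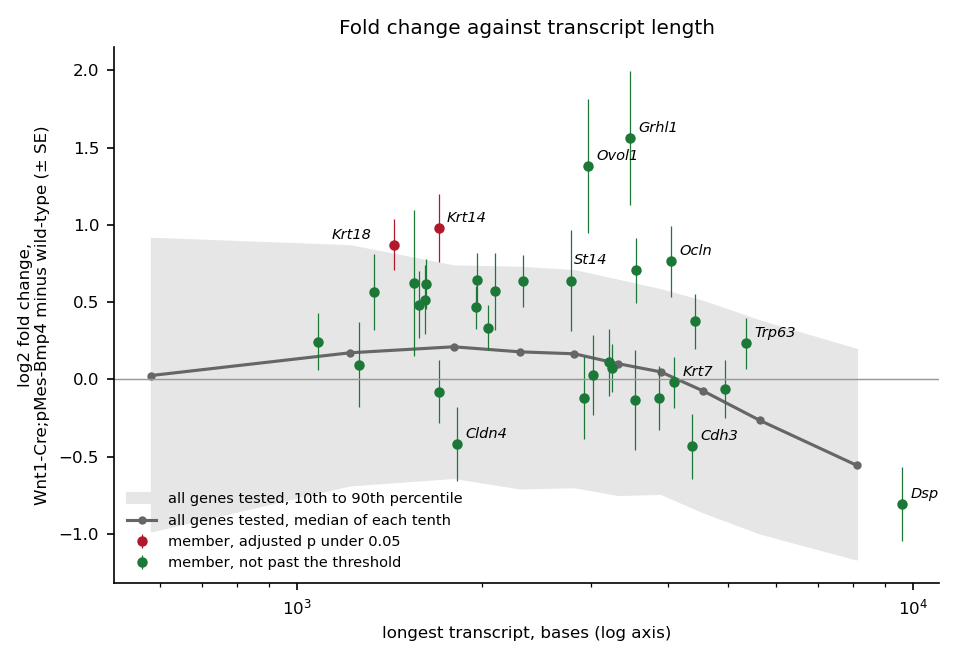
Log2 fold change, Wnt1-Cre;pMes-Bmp4 minus wild-type, against the length of the longest transcript on a log axis, for the 33 epithelial and keratin genes with their SE; the grey line and band give the median and the 10th to 90th percentile of all genes tested in 10 bins of length. Dsp lies at the long end, where the median of all genes is also below 0, and Krt18, Krt14, St14, Ocln, Ovol1 and Grhl1 lie above the band.

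Other epithelial genes, not in the set of 35, were read from a list of 50, of which 40 were tested. The test called 3 of the 40 higher and 2 lower and left 35 uncalled, around a median of 0.18 on the log2 scale. Of all genes tested, 2.97% were called higher and 5.28% lower, and the median was 0.02. The 3 that rose were Ap1m2, the epithelial subunit of a clathrin adaptor, at 1385 and 1365 in Wnt1-Cre;pMes-Bmp4 against 886.4 and 623.3 in wild-type, the claudin Cldn8, at 314.6 and 380.7 against 172.1 and 181, and F11r, the junctional adhesion molecule A, at 1873 and 1741 against 1260 and 978.1. Their limma adjusted p values were 0.0398, 0.0403 and 0.0476. The 2 that fell were Fras1 and Frem2, matrix proteins that anchor embryonic epithelium to its basement membrane, at 455.4 and 448.6 against 935.3 and 877.3 and at 681.5 and 474.1 against 1211 and 1093, again with Wnt1-Cre;pMes-Bmp4 before wild-type (limma adjusted p 0.0233 and 0.0344). Fras1 and Frem2 have long transcripts, of 15848 and 12348 bases.

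Ectodermal signals and patterning factors mostly had negative log2 fold changes. Among the 19 that were tested the calls were 1 higher and 2 lower, and 16 stayed uncalled. Of the 19, 15 had a negative log2 fold change, with a median of -0.30. Over all genes tested, 51.3% were positive, the median was 0.02, and 2.97% were called higher and 5.28% lower. The longest transcripts of the 19 had a median of 2607 bases. All genes tested with transcripts of 2562 to 3056 bases had a median log2 fold change of 0.166. Isl1, a LIM homeobox factor of the distal arch epithelium, was at 1786 and 1667 in Wnt1-Cre;pMes-Bmp4 and 827.1 and 562.6 in wild-type (limma adjusted p 0.0231). Vgll2, a cofactor of TEAD proteins, was at 1723 and 1594 in Wnt1-Cre;pMes-Bmp4 and 3770 and 3059 in wild-type, and Dlx3, a homeobox gene of arch mesenchyme and ectoderm, at 410.6 and 341.9 and at 620.8 and 869.1 in the same order (limma adjusted p 0.0218 and 0.0423). Isl1, Vgll2 and Dlx3 are not confined to epithelium in the arch. The difference between this list and the structural genes was not tested.

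Mesenchymal genes and the repressors of epithelial genes showed a median log2 fold change of -0.29 over 17 tested, with 1 higher, 3 lower and 13 not passing. The shares over all genes tested were 2.97% called higher and 5.28% lower. The longest transcripts of these 17 had a median of 5564 bases. All genes tested with transcripts of 5004 to 6572 bases had a median log2 fold change of -0.265. The 17 transcripts ranged from 1441 bases for Prrx2 to 9124 for Zeb2, so the list is not of 1 length. The part of transcript length in this list was not tested. Zeb1, a repressor that binds the E-box shown above, read 1009 and 1157 in Wnt1-Cre;pMes-Bmp4 and 1472 and 1775 in wild-type, and its relative Zeb2 340.2 and 420.7 and 556.3 and 534.8 in the same order. The groups of both did not overlap, and neither passed (log2 fold changes -0.58 and -0.53, limma adjusted p 0.0667 and 0.117); their transcripts are long, at 5801 and 9124 bases. Snai2 went the other way, at 2667 and 2262 in Wnt1-Cre;pMes-Bmp4 and 1708 and 1936 in wild-type (log2 fold change 0.43, limma adjusted p 0.108). Snai1 read 492.7 and 261.9 in Wnt1-Cre;pMes-Bmp4 and 233.7 and 319.9 in wild-type, and its groups overlapped (log2 fold change 0.39, limma adjusted p 0.46). The E-protein gene Tcf4, the fibronectin gene Fn1 and the collagen gene Col3a1 were lower, at log2 fold changes of -1.29, -0.87 and -0.84, and the homeobox gene Prrx2 was higher at 1.00 (limma adjusted p 0.0194, 0.0265, 0.0454 and 0.0237). Zeb1, Zeb2, Snai1 and Snai2 were singled out after their values were seen.

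Genes listed for other cell types did not all move with the epithelial genes, and their part in the result was not tested. These lists are not exclusive to a cell type, and Dlx5 is in both the placode and the arch crest list. For pharyngeal endoderm, 1 of 10 genes tested was higher, Nkx2-6 (log2 fold change 2.41, limma adjusted p 0.0301), 9 did not pass, with Foxa2 at -1.50 (limma adjusted p 0.0554), and the summed reads were 1860 and 1297 in Wnt1-Cre;pMes-Bmp4 and 1535 and 1334 in wild-type. Heart and mesothelium, which also use Krt8 and Krt18, had 0 of 8 past the threshold in limma (0 at an unadjusted p under 0.05), with sums of 691.1 and 522.6 in Wnt1-Cre;pMes-Bmp4 and 511.1 and 498.8 in wild-type, and Actc1 and Upk1b at log2 fold changes of 0.40 and 1.99 (limma adjusted p 0.334 and 0.354). Of the notochord list 1 of 3 was lower, Foxj1, at -2.14 (limma adjusted p 0.0365), with Col2a1 at -0.27 (limma adjusted p 0.476). The defining gene T was at 0 in every library, while Col2a1 read 3581 and 2307 in Wnt1-Cre;pMes-Bmp4 and 3006 and 4014 in wild-type. This list thus cannot be read as notochord alone. Of the placode list 1 of 7 was lower, Gbx2, at -3.23 (limma adjusted p 0.0194), with Foxd3 at -1.95 (limma adjusted p 0.0898). None of the 5 neural tube genes tested passed in limma (2 at an unadjusted p under 0.05), with Lhx2 and Sox2 at -1.51 and -0.63 (limma adjusted p 0.0767 and 0.123). None of the 11 endothelial genes passed in limma either (4 at an unadjusted p under 0.05). Emcn and Esam had log2 fold changes of 0.59 and 0.62 (limma adjusted p 0.0583 and 0.0841). The endothelial sums were 6533 and 6316 in Wnt1-Cre;pMes-Bmp4 and 5222 and 5358 in wild-type. For comparison with these lists, 2.97% of all genes tested were called higher and 5.28% lower. An unadjusted limma p under 0.05 was reached by 28.8% of all genes tested, in either direction.

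Some red cell and crest genes moved by larger amounts. The median log2 fold change was -0.76 over the erythroid list and -0.32 over the crest list, against 0.38 over the 33 epithelial genes. In each of these 2 lists 7 of 12 genes were not called. Log2 fold changes were positive for 2 of the 12 erythroid and 5 of the 12 crest genes, and for 51.3% of all genes tested. Of all genes tested, 2.97% were called higher and 5.28% lower. Of 12 erythroid genes 5 were lower, with summed reads of 419800 and 451220 in Wnt1-Cre;pMes-Bmp4 and 811730 and 739670 in wild-type. They were Hbb-y, Slc4a1, Hba-a1, Hba-x and Hba-a2, at log2 fold changes of -0.99, -1.10, -0.81, -0.81 and -1.69 (limma adjusted p 0.0218, 0.024, 0.027, 0.0274 and 0.0458), and the near-identical Hba-a1 and Hba-a2 cannot be told apart with certainty. Of 12 genes that define arch crest mesenchyme, 4 were higher (Msx2, Prrx2, Msx1 and Alx1, at log2 fold changes of 1.95, 1.00, 1.16 and 1.33) and 1 was lower (Barx1, at -2.21), with limma adjusted p values of 0.0182, 0.0237, 0.0297, 0.0362 and 0.0321 and summed reads of 41381 and 30368 in Wnt1-Cre;pMes-Bmp4 and 26488 and 35744 in wild-type. Library 1 of Wnt1-Cre;pMes-Bmp4 was higher than library 2 in 11 of these 12 crest genes (median log2 difference 0.47) and in 8 of 10 defining ectoderm markers (0.07). Wild-type library 1 was higher than wild-type library 2 in 2 of the 12 crest genes (-0.40) and in 10 of the 10 ectoderm markers (0.40). The part of these differences in the results above was not tested.

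**Figure D5:**
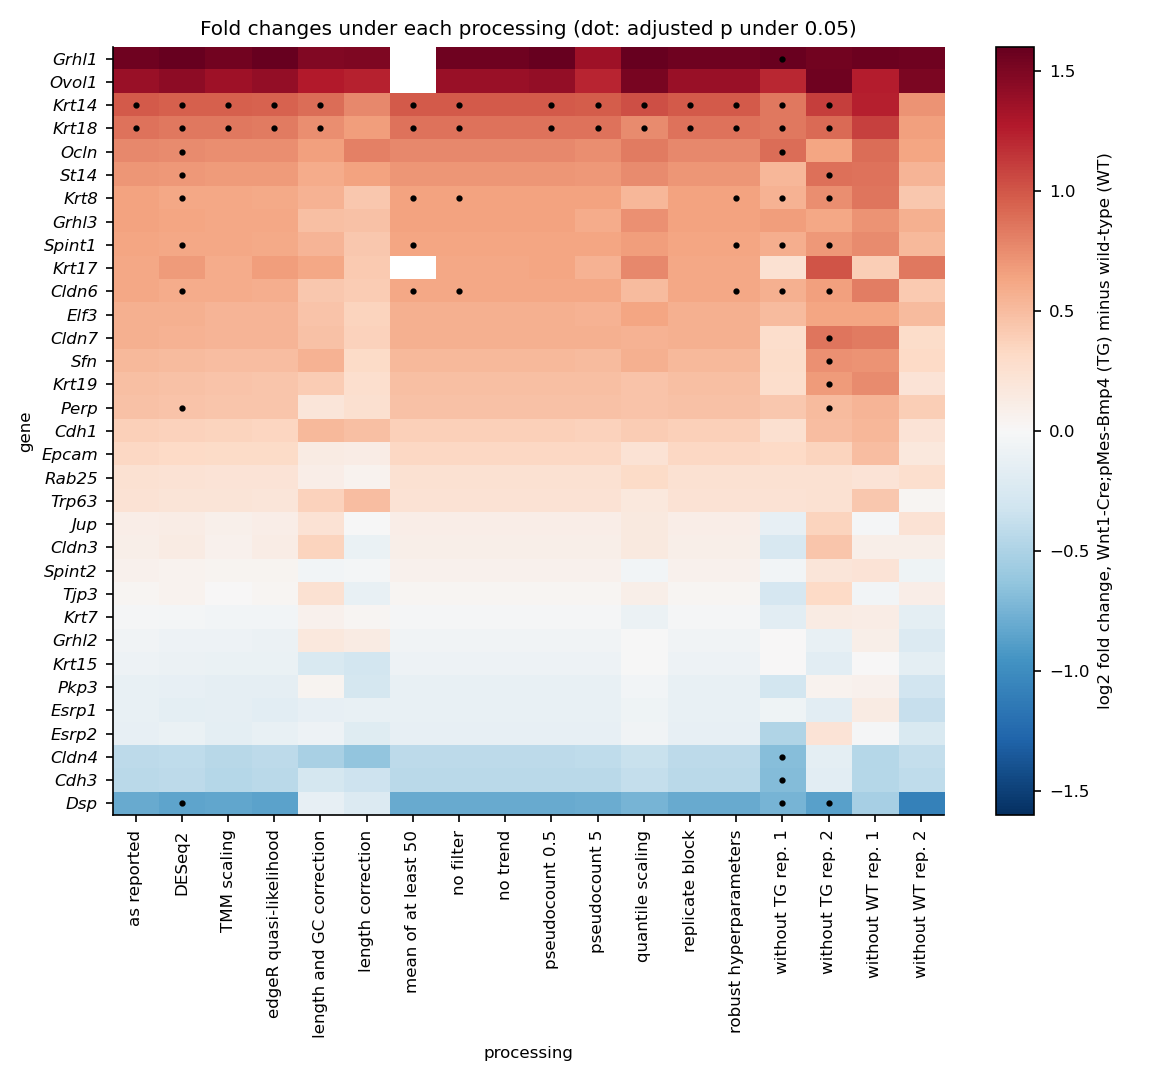
Log2 fold changes of the 33 genes (rows) as reported and under 17 other ways of processing the values (columns), in red where Wnt1-Cre;pMes-Bmp4 (TG) is higher and in blue where it is lower than wild-type (WT); black dots mark an adjusted p under 0.05 and blank cells genes not in that fit. Krt14 and Krt18 are red in every column and have dots in 13 of the 17 others, and the dots vanish without the trend, after the length correction and without either wild-type library.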

How the data were processed

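Libraries were made from polyA-selected RNA by random-primed reverse transcription, per the labels' protocols. The table deposited by the authors holds a signal per gene, namely featureCounts read counts, per the file headers, scaled by 1 size factor a library. Submitters' processing notes list fastp 0.21.0 and mm10; for the aligner, annotation, strand setting and normalization tool, the source is not given in the sources used here. As multiples of the smallest value above 0 in their column, 100% of values were whole reads within 0.01, and the size factors equalled median-of-ratios factors. On those reads edgeR called 409 genes higher and 915 lower.

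limma 3.58.1 (R 4.3.3, prior variance trended on level) was fitted to log2(value + 1) for genes with a mean of at least 10. Fold changes give the transgenic group over the wild-type group and understate the change of low genes. The fit had 2 residual and 5.26 prior degrees of freedom; permuting 2 against 2 libraries exactly cannot give a two-sided p below 0.333. Since the labels do not say that libraries came from separate embryos, p-values measure the spread between these libraries, which may be technical. The 35 genes, their roles and 12 further lists were chosen with earlier results of these data known. Every gene of the set was named. From each further list up to 6 genes past the threshold were named, or, if under 2 passed, the 2 of lowest p. Zeb1, Zeb2, Snai1 and Snai2 are outside this rule.

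GENCODE M21 (GRCm38, the assembly that mm10 names) gave positions, exon overlaps, GC content and the longest transcript, found for 96.9% of genes tested. For the length correction, a spline with 4 degrees of freedom on log2 length, trained on genes averaging at least 50, was subtracted in each library. Exons of Esrp2, Grhl2 and Tjp3 share 219, 169 and 40 bases with exons of Nfatc3, Gm16136 and Apba3 on the opposite strand, and without a stated strand setting reads there cannot be separated. The limma step was tried on counts simulated from the means and depths of these libraries, with few genes changed. Over 3 draws it recovered 34.7% of 2-fold and 72% of 4-fold changes, and called 18.7 unchanged genes on average. Many changes of 2-fold or less would thus be missed under such settings. Alternatives, listed in the closing section, used edgeR 4.0.16 and DESeq2 1.42.0, and figures matplotlib 3.10.9.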

Additional observations from a re-analysis of the deposited data

How the results depend on the processing

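Krt18 and Krt14 were called higher in 13 of 17 other fits, and none of the 33 genes tested reversed a call. Against 2 higher calls among the 33 as reported, there were 4 with no filter, 5 with a mean of at least 50, 5 with robust hyperparameters, 8 with DESeq2, 10 at a threshold of 0.1, 0 without the trend and 0 with the transcript length correction. Against 0 lower, there was 1 with DESeq2 and 1 at a threshold of 0.1. DESeq2 gave no adjusted p for Grhl1, Krt17 and Ovol1. Over all genes, against 498 higher and 884 lower, the counts were 0 and 0 without the trend, 1284 and 1582 with DESeq2, 107 and 162 with the length correction and 1307 and 1726 at a threshold of 0.1, and robust hyperparameters gave 809 higher. Leaving out 1 library gave 0 to 10 higher and 0 to 3 lower calls among the 33, and 0 to 2675 higher and 0 to 2719 lower over all genes. Without wild-type library 1, or without wild-type library 2, all calls among the 33 were lost, and so were nearly all calls over all genes. Leaving out a Wnt1-Cre;pMes-Bmp4 library gave more calls, both among the 33 and over all genes. Each of these fits has 1 library in a group, whose spread is taken from the other group. The median over the 33 genes ranged from 0.24 to 0.50. The cause of these differences was not tested. With 2 libraries a group, the number of libraries limits the precision.

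The labels give no shared litter or batch for equal replicate numbers, and the deviations of libraries with the same number correlated at -0.147 across genes. With the replicate block, 2 of the 33 were called higher and 0 lower, and 165 and 543 over all genes. With the block's numbers crossed, chosen after seeing the data, there were 8 higher and 1 lower among the 33, and 1763 and 1952 over all genes.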
